A study of Rattus norvegicus with 12 samples.

Results

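The genes described here are 10 defences against oxidative damage: Hmox1, Nqo1, Gclc, Gclm, Txnrd1, Slc7a11, Gpx4, Gpx1, Srxn1 and Sod2. They were taken by symbol from a table of estimated read counts for 18800 gene symbols in rat brain tissue, and all 10 were present. The samples came from Sprague-Dawley rats in 3 groups. In the electroacupuncture group, rats with the MCAO/R model (middle cerebral artery occlusion followed by reperfusion, a stroke model in which a large brain artery is blocked and reopened) were bundled, that is restrained, and received current through needles at the Tianfu, Chize, Kongzui and Taiyuan points of the Lung Meridian. Model rats had the same MCAO/R procedure and were bundled to the same degree and for the same time without electroacupuncture. Control rats were bundled alike, with neither. The labels give the controls no operation, whereas the table's columns call them sham. Restraint was thus common to all groups, and the brain region, side, age of the rats and time after reperfusion remain not given in the sources used here.

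Reactive oxygen species are released when blood returns to ischemic tissue, and most of these genes belong to the answer to them that is led by the transcription factor NRF2. NRF2 is held down by KEAP1 and, once released, binds antioxidant response elements in the promoters of its targets. Ferroptosis is a form of cell death driven by iron and by peroxidation of membrane lipids. Cystine taken up through Slc7a11 feeds the synthesis of glutathione, and Gpx4 uses glutathione to reduce lipid peroxides, so that this axis is regarded as the main brake on ferroptosis.

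The 11 columns of the table were reduced to 8 samples, because 3 pairs of columns within a group differed by only 1.34 to 1.40 times the sampling variance, against 4.75 to 26.5 times for the other 12 pairs within groups. The counts of each such pair were summed. This left 3 electroacupuncture samples (A to C), 2 model samples (A and B) and 3 control samples (A to C), with total counts of 9335913 to 23835724. Levels are given as CPM, counts per 1000000 counts of a library's scaled total. Electroacupuncture A and model A stood apart in microglia, macrophage and neuron markers, and other samples stood apart in other marker lists. The summed level of 16 microglia and macrophage markers, none of them at 0 in any sample, was 416 to 1172 CPM with electroacupuncture, 494 to 888 CPM in the model and 319 to 433 CPM in controls, highest in electroacupuncture A and model A. The summed level of 9 neuron markers was 3912 CPM in electroacupuncture A and 6173 CPM in model A, and between 7989.8 and 11035 CPM in the other 6. The 9 hippocampal markers, of which Spink8 was at 0 in at least 1 sample, summed to 189, 584 and 613 CPM in electroacupuncture A to C. They summed to 199 and 184 CPM in model A and model B, and to 663 to 818 CPM in controls. Striatal markers summed to 4972 CPM in electroacupuncture A and 803 CPM in model A, and to 220 to 432 CPM in the other 6. In such bulk tissue, fewer cells of a type and less RNA per cell cannot be told apart. Regional markers also differed within groups, and the piece of brain sampled cannot be told apart from group or sample.

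None of the 10 passed the test across all genes, which called at most 1 gene of 15487 in a comparison, so that the intervals rather than the calls say how far the groups could differ. The nearest to a group difference were Hmox1, Nqo1 and Gclc. The fitted level of Hmox1 was 1.97 times as high in the model as in controls (95% interval 1.01 to 3.84). Its log2 fold change was 0.31 without model A. Nqo1 was 1.46 times as high with electroacupuncture as in controls (0.988 to 2.15) and 1.42 times as high as in the model (0.918 to 2.19). Gclc was 1.29 times as high with electroacupuncture as in controls (0.970 to 1.72). Gpx4, the enzyme that stops lipid peroxidation, stayed within 284 to 388 CPM in all samples. All 10 genes passed the expression filter, with at least 46 counts in every sample, and none was called in any comparison by edgeR's quasi-likelihood test at an adjusted p under 0.05. For electroacupuncture against model the count was 0 of 10 (background 0% of 15487 genes tested), for electroacupuncture against control 0 of 10 (0%) and for model against control 0 of 10 (0.00646%, that is 1 gene). DESeq2 also called 0 of 10 in each comparison, where it called 4.51% of all genes for electroacupuncture against model, 0.0054% for electroacupuncture against control and 5.11% for model against control. With every column as its own sample edgeR again called 0 of 10, beside 10.9%, 0% and 7.37% of all genes in the same comparisons. That setting counts near-identical columns as separate samples, so its p-values may be too low and its calls too many, here and in what follows. At an unadjusted edgeR p under 0.05 the count for electroacupuncture against model was 0 higher (6.3% of all genes) and 0 lower (7.18%), and for electroacupuncture against control 0 higher (2.71%) and 0 lower (0.956%). For model against control it was 1 higher, Hmox1 (7.61%), and 0 lower (6.2%). The median log2 fold change of the 10 was 0.16 for electroacupuncture against model, 0.13 for electroacupuncture against control and 0.029 for model against control, beside 0.034, 0.0053 and 0.017 over all genes tested. The estimate was positive for 7 of 10 for electroacupuncture against model (53.4% of all genes), 8 of 10 for electroacupuncture against control (50.8%) and 7 of 10 for model against control (51.5%). Without overlap between groups, 1 of 10 was higher (12.9%) and 0 lower (11.7%) for electroacupuncture against model, 2 higher (5.98%) and 0 lower (4.87%) for electroacupuncture against control, and 1 higher (18.2%) and 2 lower (19.6%) for model against control. These few genes are Nqo1, Gclc, Hmox1, Gclm and Sod2, described by role in what follows.

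**Figure D1:**
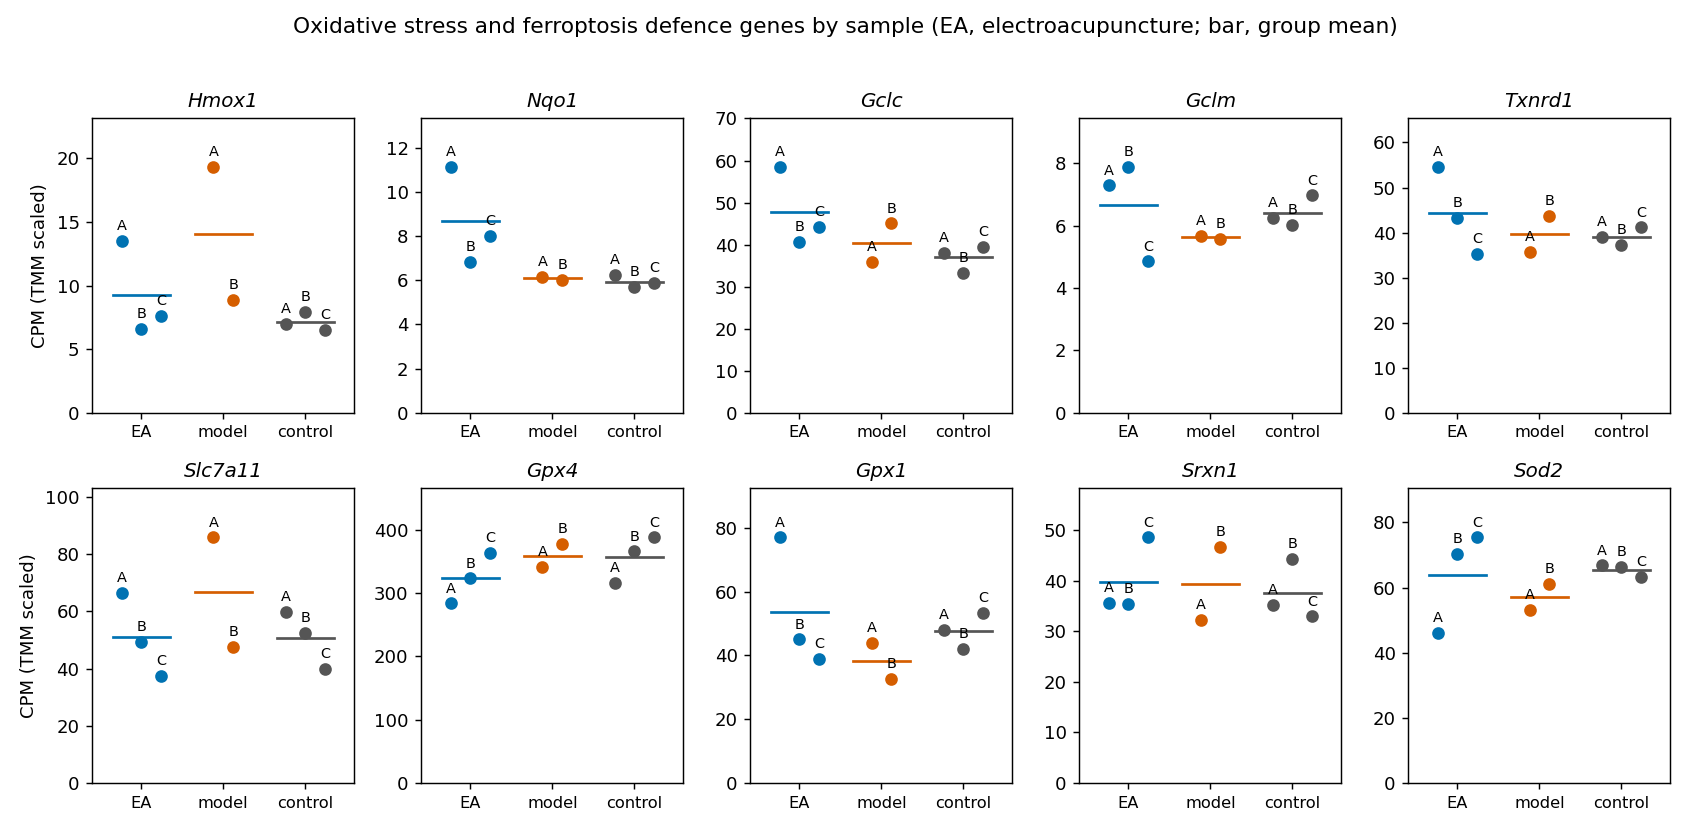
CPM (TMM scaled, linear axis from 0) of each of the 10 genes in the 8 samples, with a point per sample, its letter, and a bar at the group mean. Hmox1 and Slc7a11 were highest in model A, whereas Nqo1, Gclc, Txnrd1 and Gpx1 were highest in electroacupuncture A.

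Hmox1 encodes the inducible haem oxygenase, which splits haem into biliverdin, carbon monoxide and iron. It measured 13.5, 6.59 and 7.59 CPM in electroacupuncture A to C, 19.3 and 8.87 CPM in model A and model B, and 6.97, 7.96 and 6.50 CPM in control A to C. Both model samples lay above every control, a pattern found for 18.2% of all genes tested, while the electroacupuncture samples overlapped both other groups. Model A alone was more than 2 times any control, and electroacupuncture A came next. The group means were 14.1 ± 7.37 CPM in the model (SD, n = 2) and 7.14 ± 0.742 CPM in controls (SD, n = 3). The difference did not pass (log2 fold change 0.98, 95% interval 0.019 to 1.94, edgeR adjusted p = 0.354), and its size rested on model A: the log2 fold change was 0.31 without model A and 1.43 without model B. The pair of columns summed as model A held 206 and 154 Hmox1 counts, or 23.3 and 17.8 CPM of the unscaled total, and each exceeded the 15.2 CPM of electroacupuncture A, the highest of the other columns. Electroacupuncture against model gave -0.61 (edgeR adjusted p = 0.591), which turned to 0.055 without model A. Electroacupuncture against control gave 0.37 (edgeR adjusted p = 0.844), and -0.013 without electroacupuncture A.

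The samples with the most Hmox1 were also those with the most microglia and macrophage RNA. The summed marker level was 1172 CPM in electroacupuncture A and 888 CPM in model A, and 319 to 494 CPM in the remaining 6. The order was not the same at the top, since model A had the most Hmox1 and electroacupuncture A the most marker RNA. Electroacupuncture A and model A also had the most astrocyte marker RNA, at 6739 and 6271 CPM. They had the least neuron marker RNA, at 3912 and 6173 CPM. Their striatal marker RNA was the highest too, at 4972 and 803 CPM. The part of any of these cells, or of the brain region sampled, in the Hmox1 values was not tested. Its constitutive counterpart Hmox2 measured 75.9 to 105 CPM with electroacupuncture, 78.1 to 95.8 in the model and 93.8 to 108 in controls, so the ranges of the 3 groups overlapped.

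**Figure D2:**
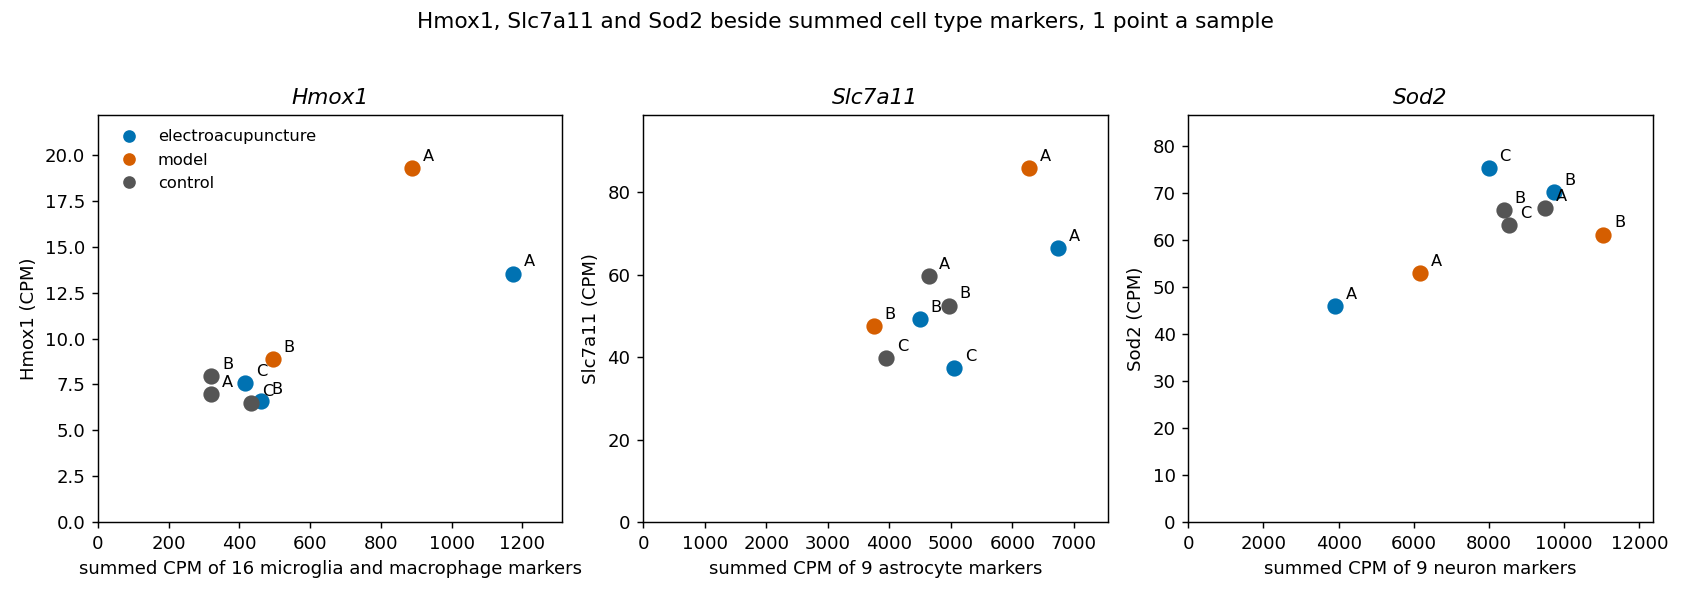
Each panel plots a gene's CPM (vertical) against the summed CPM of a marker list (horizontal) with 1 point a sample, lettered and coloured by group: Hmox1 beside 16 microglia and macrophage markers, Slc7a11 beside 9 astrocyte markers, and Sod2 beside 9 neuron markers. Electroacupuncture A and model A lie at the far right of the first and second panels and at the far left of the third.

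Slc7a11 is the transport chain of the antiporter that brings cystine in and lets glutamate out, and in brain it is best known from astrocytes. It measured 66.5, 49.2 and 37.4 CPM in electroacupuncture A to C, 85.9 and 47.6 CPM in model A and model B, and 59.8, 52.5 and 39.8 CPM in control A to C. Only model A stood clear of the control range among the model samples, and model B lay within it, so the groups overlapped in all 3 comparisons. Model against control gave a log2 fold change of 0.40 (edgeR adjusted p = 0.610), which was -0.095 without model A and 0.76 without model B. Electroacupuncture against model gave -0.39 (edgeR adjusted p = 0.683), and 0.10 without model A. The 9 astrocyte markers summed to 6739 CPM in electroacupuncture A and 6271 CPM in model A, and 3744 to 5055 CPM in the remaining 6, and none was at 0. Striatal markers were also highest in electroacupuncture A and model A. The part of astrocytes, or of the brain region sampled, in the Slc7a11 values was not tested. Slc3a2, the heavy chain that anchors Slc7a11 in the membrane, had another order, at 162, 108 and 130.4 CPM in electroacupuncture A to C, 114 and 122 CPM in model A and model B, and 93.5, 105 and 128 CPM in control A to C.

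Gclc and Gclm encode the catalytic and the modifier subunit of glutamate-cysteine ligase, the rate-limiting enzyme of glutathione synthesis. Gclc measured 58.4, 40.7 and 44.3 CPM in electroacupuncture A to C, 36.0 and 45.1 CPM in model A and model B, and 38.1, 33.3 and 39.5 CPM in control A to C. Every electroacupuncture sample lay above every control, by a small margin for electroacupuncture B, and 5.98% of all genes had this pattern. The model samples spanned both ranges. The means were 47.8 ± 9.35 CPM with electroacupuncture and 37.0 ± 3.25 CPM in controls (SD, n = 3 each), a difference that did not pass (log2 fold change 0.37, 95% interval -0.044 to 0.78, edgeR adjusted p = 0.843) and was 0.20 without electroacupuncture A. Gclm measured 7.29, 7.86 and 4.85 CPM in electroacupuncture A to C, 5.68 and 5.58 CPM in model A and model B, and 6.23, 6.02 and 6.96 CPM in control A to C. It had its highest and its lowest value within the electroacupuncture group, and both model samples lay below every control, as for 19.6% of all genes (log2 fold change -0.19, edgeR adjusted p = 0.788). The lowest value, in electroacupuncture C, rests on 46 counts, for which an exact 95% Poisson interval runs from 33.7 to 61.4 counts, counting error only. In electroacupuncture C, Gclc lay above every control and Gclm below, a contrast within 1 sample that rests on those 46 counts.

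The next enzymes of the glutathione cycle did not pass either. Gss, which joins glycine to complete glutathione, measured 14.3 to 19.6 CPM with electroacupuncture, 15.4 to 16.1 in the model and 15.5 to 18.2 in controls. Gsr, the reductase that restores oxidised glutathione, measured 19.7, 27.0 and 21.3 CPM in electroacupuncture A to C, 18.3 and 21.5 CPM in model A and model B, and 33.6, 29.6 and 24.7 CPM in control A to C. Both model samples of Gsr lay below every control, as for 19.6% of all genes (log2 fold change -0.56, edgeR adjusted p = 0.297). With every column as its own sample the edgeR adjusted p of Gsr was 0.0556, so it did not pass there either.

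Gpx4, Gpx1 and Txnrd1 are selenoproteins, enzymes with selenocysteine at the active site. Gpx4 reduces lipid peroxides within membranes. It measured 284, 323 and 363 CPM in electroacupuncture A to C, 341 and 378 CPM in model A and model B, and 316, 366 and 388 CPM in control A to C. Electroacupuncture A was the lowest and control C the highest sample, and the 3 groups overlapped. The intervals were the narrowest of the 10 in each comparison: -0.56 to 0.26 on the log2 scale for electroacupuncture against model, -0.51 to 0.23 for electroacupuncture against control and -0.40 to 0.43 for model against control. As folds, these reach from 0.676 to 1.34, the lowest bound being that for electroacupuncture against model and the highest that for model against control.

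Gpx1 encodes the abundant soluble peroxidase that removes hydrogen peroxide. It measured 77.0, 45.1 and 38.9 CPM in electroacupuncture A to C, 43.8 and 32.6 CPM in model A and model B, and 48.0, 41.9 and 53.4 CPM in control A to C. Electroacupuncture A was the highest sample and model B the lowest, while the other 6 lay between 38.9 and 53.4 CPM and the groups overlapped. Electroacupuncture against model gave log2 fold change 0.49, 95% interval -0.22 to 1.2, edgeR adjusted p = 0.555, and the log2 fold change was 0.14 without electroacupuncture A. Txnrd1 encodes the cytosolic thioredoxin reductase, which keeps thioredoxin reduced. It measured 54.5, 43.3 and 35.3 CPM in electroacupuncture A to C, 35.7 and 43.6 CPM in model A and model B, and 39.0, 37.3 and 41.1 CPM in control A to C. Except for electroacupuncture A all samples lay within 35.3 to 43.6 CPM, and the groups overlapped in each comparison (edgeR adjusted p = 0.796 for electroacupuncture against model, 0.844 for electroacupuncture against control and 0.971 for model against control). Selenop, the plasma and glial protein that delivers selenium, measured 503, 384 and 391 CPM in electroacupuncture A to C, 266 and 222 CPM in model A and model B, and 245, 263 and 485 CPM in control A to C. All 3 electroacupuncture samples lay above both model samples for Selenop, as for 12.9% of all genes (log2 fold change 0.80, edgeR adjusted p = 0.343), while control C lay within the electroacupuncture range; it passed only with every column as its own sample (adjusted p = 0.0430).

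Nqo1, a cytosolic quinone reductase widely used as a readout of NRF2, measured 11.1, 6.84 and 8.01 CPM in electroacupuncture A to C, 6.16 and 6.02 CPM in model A and model B, and 6.23, 5.68 and 5.86 CPM in control A to C. All 3 electroacupuncture samples lay above all 5 others, and the model and control samples lay together between 5.68 and 6.23 CPM. Of all genes tested, 12.9% were higher without overlap for electroacupuncture against model and 5.98% for electroacupuncture against control. The means were 8.65 ± 2.20 CPM with electroacupuncture (SD, n = 3), 6.09 ± 0.0992 CPM in the model (SD, n = 2) and 5.93 ± 0.280 CPM in controls (SD, n = 3). Neither difference passed: electroacupuncture against model gave log2 fold change 0.50, 95% interval -0.12 to 1.13, edgeR adjusted p = 0.480, and electroacupuncture against control gave log2 fold change 0.54, 95% interval -0.018 to 1.10, edgeR adjusted p = 0.843. Without electroacupuncture A, these log2 fold changes were 0.29 and 0.32. Each value rests on few reads, from 50 to 161 counts a sample.

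Srxn1 encodes sulfiredoxin, which repairs overoxidised peroxiredoxins, and is another usual NRF2 target. It had another order than Nqo1, at 35.6, 35.5 and 48.6 CPM in electroacupuncture A to C, 32.2 and 46.8 CPM in model A and model B, and 35.3, 44.3 and 33.0 CPM in control A to C. Each group held at least 1 sample between 32.2 and 35.6 CPM and 1 of 44.3 CPM or more, and the groups overlapped throughout (edgeR adjusted p = 0.989 for electroacupuncture against model, 0.924 for electroacupuncture against control and 0.911 for model against control). Its deposited counts are partly fractional, as are those of Slc7a11, and whether reads shared with other genes are among them was not tested. Prdx1, a peroxiredoxin that Srxn1 repairs, measured 146, 122 and 123 CPM in electroacupuncture A to C, 112 and 81.8 CPM in model A and model B, and 86.8, 103 and 115 CPM in control A to C. All 3 electroacupuncture samples lay above the other 5 for Prdx1, without passing (edgeR adjusted p = 0.410 against model and 0.843 against control). Of all genes, 12.9% were higher without overlap against model and 5.98% against control.

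Sod2 encodes the manganese superoxide dismutase of mitochondria and is a known target of NF-kB. It measured 46.0, 70.3 and 75.4 CPM in electroacupuncture A to C, 53.1 and 61.2 CPM in model A and model B, and 66.8, 66.4 and 63.2 CPM in control A to C. Both model samples lay below every control by a small amount, as for 19.6% of all genes, and electroacupuncture A was the lowest of all while electroacupuncture B and C were the highest. Model against control gave log2 fold change -0.20, 95% interval -0.70 to 0.30, edgeR adjusted p = 0.709. Electroacupuncture against model gave 0.16 (edgeR adjusted p = 0.813), and 0.35 without electroacupuncture A (edgeR adjusted p = 0.216). The samples lowest in Sod2, electroacupuncture A and model A, were those lowest in neuron markers and highest in striatal markers. The part of neurons, or of the brain region sampled, in the Sod2 values was not tested. Nfkbia, the inhibitor that NF-kB induces, had another order, at 104, 38.0 and 124 CPM in electroacupuncture A to C, 49.8 and 125 CPM in model A and model B, and 36.5, 40.8 and 39.5 CPM in control A to C. Its high samples were electroacupuncture A and C and model B, and the differences did not pass (model against control, log2 fold change 1.17, edgeR adjusted p = 0.369, and 0.35 without model B).

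**Figure D3:**
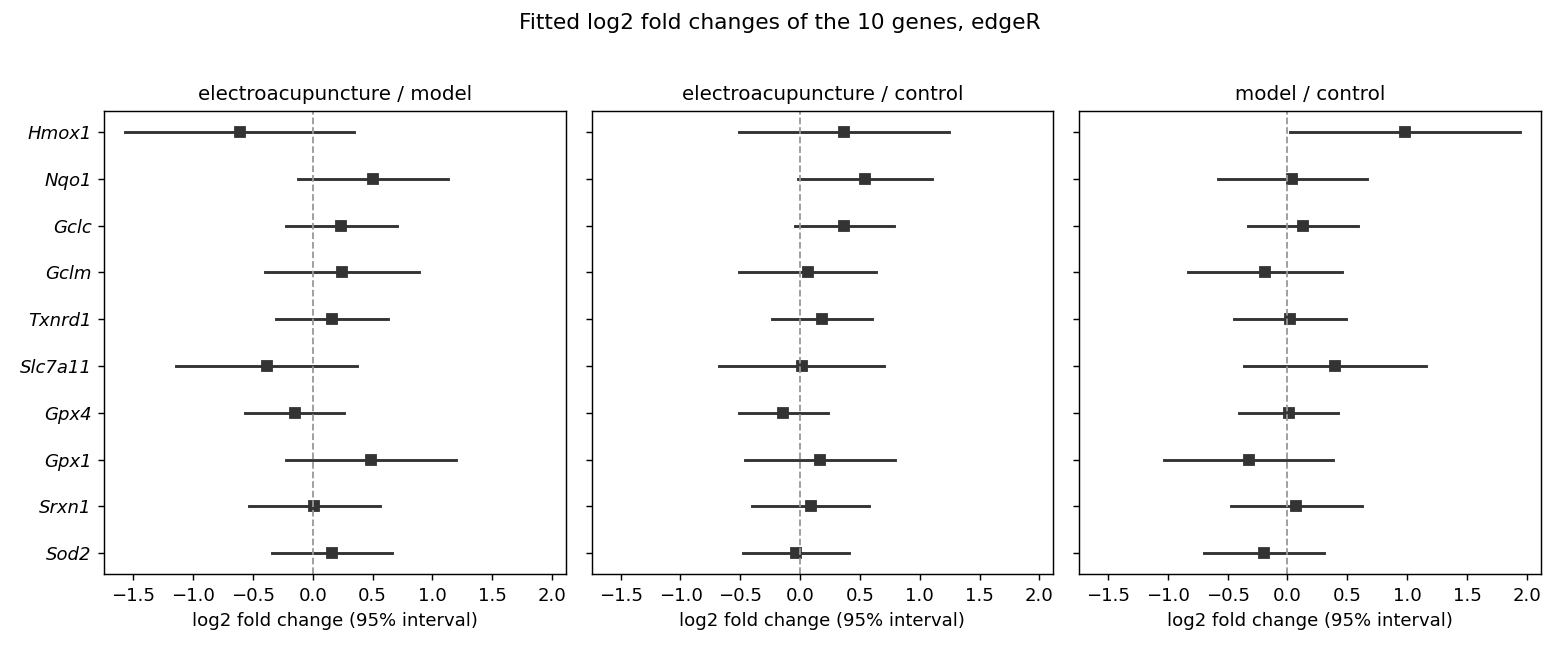
Fitted log2 fold changes (squares) with 95% intervals (lines) of the 10 genes in the 3 comparisons, with the group divided and the group it was divided by named above each panel. The interval of Hmox1 for model over control starts just above 0, at 0.019, and every other interval crosses 0.

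Across samples the genes did not move as a block. Electroacupuncture A was the highest of the 8 samples for 4 of the 10 (Nqo1, Gclc, Txnrd1 and Gpx1) and the lowest for 2 (Gpx4 and Sod2), beside 25% and 24% of all genes. Model A was the highest for Hmox1 and Slc7a11, 2 of 10 beside 15.1%, and the lowest for Srxn1 (1 of 10, 15.5%). Electroacupuncture C was the highest for Srxn1 and Sod2 (2 of 10, 10.1%) and the lowest for Gclm, Txnrd1 and Slc7a11 (3 of 10, 9.38%). With each gene centred on its mean over the 8 samples, the members closest to each other were Gclc and Txnrd1, at a mean absolute difference of 0.10 on the log2 scale, followed by Nqo1 and Gclc at 0.11. The same measure was applied to the 3 members that varied most, against the 12067 genes that averaged 5 CPM or more. The genes closest to Hmox1 were Mtmr11 (0.072), Zfp566 (0.090) and Tmsb15b2 (0.10), in log2 units, those closest to Slc7a11 were Yes1 (0.12), Aqp4 (0.12) and Dusp8 (0.12), and those closest to Gpx1 were Fastkd5 (0.077), Hist2h2be (0.085) and Hadh (0.086). Among them Aqp4, the water channel of astrocyte end-feet, measured 651, 489 and 349 CPM in electroacupuncture A to C, 709 and 401 CPM in model A and model B, and 506, 379 and 367 CPM in control A to C. Its likeness to Slc7a11 is what chose it, and says nothing further.

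**Figure D4:**
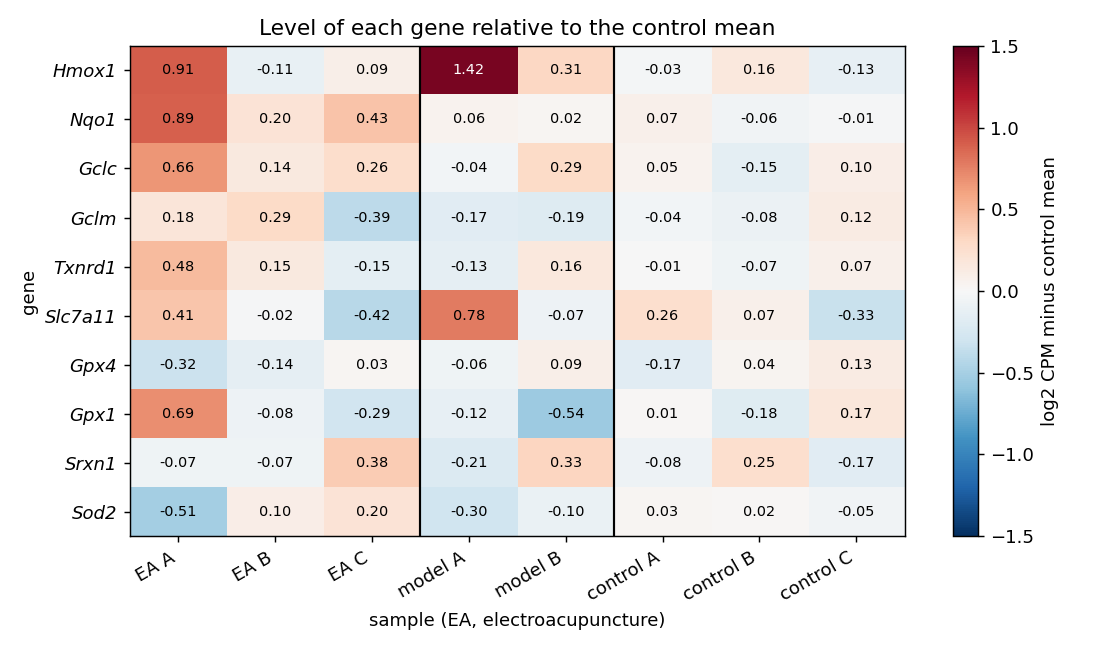
Log2 CPM of each gene (rows) in each sample (columns) minus the mean of the 3 controls, with the value printed in each cell and red for above and blue for below. The largest value is 1.42 for Hmox1 in model A, and electroacupuncture A holds the largest value of its group for Hmox1, Nqo1, Gclc, Txnrd1, Slc7a11 and Gpx1.

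Promoter windows were available from RefSeq for 9 of the 10 genes, all but Hmox1, as 12 windows of 250 bases before and 50 bases after an annotated start (build GRCr8). The antioxidant response element core TGACNNNGC, searched on both strands, was found in windows of 3 of them, Gclm, Txnrd1 and Sod2, and in 12.1% of all promoter windows of this length. The AP-1 type motif TGAGTCA, also searched on both strands and not overlapping these matches, was found at 2 places in the Srxn1 window and in 4.63% of all windows. The later of these places reads TGAGTCAgc, which differs from the core searched in a single base, G for C. A core with G at that base was not searched. The stretches around the matches are shown because they hold the letters that NRF2 and AP-1 factors are known to bind; capitals mark the matches, 5′ to 3′ on the gene's strand, where the core reads as its reverse complement.
Gclm (GRCr8 chr2:213031903-213032031, plus strand): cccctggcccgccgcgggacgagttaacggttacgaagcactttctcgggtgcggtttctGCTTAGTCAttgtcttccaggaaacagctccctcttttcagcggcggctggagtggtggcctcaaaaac
Txnrd1 (GRCr8 chr7:22755914-22756042, minus strand): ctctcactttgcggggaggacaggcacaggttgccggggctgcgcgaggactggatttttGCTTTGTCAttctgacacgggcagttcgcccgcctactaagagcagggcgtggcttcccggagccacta
Sod2 (GRCr8 chr1:50050159-50050263, minus strand): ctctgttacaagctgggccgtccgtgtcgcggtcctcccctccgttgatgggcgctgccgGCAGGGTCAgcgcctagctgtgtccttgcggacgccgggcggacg
Srxn1 (GRCr8 chr3:161064690-161064821, plus strand): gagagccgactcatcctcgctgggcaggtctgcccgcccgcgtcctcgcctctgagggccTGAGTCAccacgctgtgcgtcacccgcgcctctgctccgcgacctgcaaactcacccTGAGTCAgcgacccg
The first base of the match lay 172 bases before the start in Gclm, 78 in Txnrd1 at 1 of its annotated starts, and 35 in Sod2, and 62 and 5 bases before it in Srxn1. These 4 genes shared no common order of samples: Txnrd1 was highest in electroacupuncture A, Gclm in electroacupuncture B, and Sod2 and Srxn1 in electroacupuncture C. A match is a run of letters and not a measured site, and its absence from a window says nothing of sequence farther away.

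For the other genes of these pathways, counts are given by edgeR on the 8 samples, by DESeq2 and by edgeR with every column as its own sample. Genes named only for a call were chosen after their values were seen. Electroacupuncture against model and model against control share the 2 model samples. Opposite directions of a gene in these comparisons are therefore not separate results. Of 12 listed NRF2 regulators edgeR called 0 in each comparison, with a median log2 fold change of -0.024 for electroacupuncture against model, -0.020 for electroacupuncture against control and 0.18 for model against control. In these comparisons 3, 0 and 2 had an unadjusted p under 0.05. For this and each later list, the background at that edgeR threshold is 2087, 567 and 2139 of all 15487 genes. For DESeq2 calls it is 4.51%, 0.0054% and 5.11% of all genes. With every column as its own sample it is 10.9%, 0% and 7.37%. In the same comparisons DESeq2 called 0, 0 and 0, while edgeR with every column as its own sample called 2 for electroacupuncture against model (Nfe2l1 and Mafg lower) and 2 for model against control (Nfe2l1 and Mafg higher). Nfe2l2, which encodes NRF2, measured 43.9, 22.4 and 26.2 CPM in electroacupuncture A to C, 31.3 and 16.8 CPM in model A and model B, and 16.8, 21.7 and 22.7 CPM in control A to C. It was highest in electroacupuncture A and then in model A, and electroacupuncture against control did not pass (log2 fold change 0.59, edgeR adjusted p = 0.843), and was 0.25 without electroacupuncture A. Keap1, its inhibitor, measured 57.6 to 68.6 CPM with electroacupuncture, 60.7 to 67.6 in the model and 61.8 to 64.8 in controls. Sqstm1, the autophagy receptor that can bind KEAP1, measured 367 to 537 CPM with electroacupuncture, 437 to 515 in the model and 506 to 583 in controls. Bach1, a repressor of Hmox1, was low, at 0.211 to 2.08 CPM with electroacupuncture, 0.219 to 0.911 in the model and 0.275 to 0.825 in controls.

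Of 28 other NRF2 targets listed, 27 were in the table and 26 were tested. On the 8 samples edgeR called 0, and the median log2 fold change was 0.17 for electroacupuncture against model, 0.20 for electroacupuncture against control and 0.013 for model against control; 1, 2 and 2 had an unadjusted p under 0.05 in these comparisons. DESeq2 called 0, 0 and 1, while edgeR with every column as its own sample called 1 for electroacupuncture against model (Taldo1 higher) and 1 for model against control (Taldo1 lower). Among them the iron store subunits differed in order: Ftl1, ferritin light chain, measured 585 to 916 CPM with electroacupuncture, 646 to 977 in the model and 500.2 to 653 in controls, and Fth1, the heavy chain, 2347 to 4407 CPM with electroacupuncture, 2446 to 2968 in the model and 2676 to 3654 in controls. Ftl1 was highest in model A and electroacupuncture A and Fth1 in electroacupuncture C. Oligodendrocyte markers also summed highest in electroacupuncture C, and their part in the Fth1 values was not tested. Txn1, thioredoxin, measured 45.0 to 79.2 CPM with electroacupuncture, 54.5 to 59.3 in the model and 66.4 to 72.2 in controls. Both model samples lay below every control for Txn1, as for 19.6% of all genes, with electroacupuncture samples on both sides.

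Of 20 further genes of ferroptosis defence 19 were tested and edgeR called 0 on the 8 samples, with a median log2 fold change of 0.10 for electroacupuncture against model, -0.058 for electroacupuncture against control and -0.12 for model against control; 2, 0 and 2 had an unadjusted p under 0.05 in these comparisons. DESeq2 called 1, 0 and 1, while edgeR with every column as its own sample called 1 for electroacupuncture against model (Akr1c14 lower) and 1 for model against control (Akr1c14 higher). Aifm2 (FSP1), which keeps ubiquinone reduced independently of Gpx4, measured 10.5, 3.91 and 4.11 CPM in electroacupuncture A to C, 10.3 and 7.39 CPM in model A and model B, and 4.86, 4.66 and 3.57 CPM in control A to C. Both model samples lay above every control, as for 18.2% of all genes (model against control, log2 fold change 1.02, edgeR adjusted p = 0.385). Electroacupuncture A stood at the level of model A. Gch1, the first enzyme of tetrahydrobiopterin synthesis, failed the filter at under 1 CPM in all samples. Of 18 genes that promote ferroptosis 17 were tested and edgeR called 0 on the 8 samples, with a median log2 fold change of 0.16 for electroacupuncture against model, -0.015 for electroacupuncture against control and -0.20 for model against control; 2, 0 and 2 had an unadjusted p under 0.05 in these comparisons. DESeq2 called 1, 0 and 2, while edgeR with every column as its own sample called 1 for electroacupuncture against model (Steap3 lower). The genes DESeq2 called were Steap3, an iron reductase, and Ireb2, an iron-responsive RNA-binding protein. Steap3 was lower with electroacupuncture than in the model and higher in the model than in controls, comparisons that share the model samples. Ireb2 was higher in the model than in controls. Acsl4, which loads membranes with oxidisable fatty acids, measured 39.9 to 95.2 CPM with electroacupuncture, 63.9 to 86.1 in the model and 76.3 to 87.6 in controls. Tfrc, the transferrin receptor, measured 52.2 to 128 CPM with electroacupuncture, 76.1 to 91.4 in the model and 84.0 to 129 in controls, and Ncoa4, the ferritin autophagy receptor, 78.7 to 103 CPM with electroacupuncture, 71.3 to 87.2 in the model and 90.8 to 91.4 in controls. Acsl4 and Tfrc were lowest in electroacupuncture A, where neuron markers were lowest too; the part of neurons was not tested. Ptgs2, often used as a marker of ferroptosis, measured 0.954 to 5.74 CPM with electroacupuncture, 0.482 to 1.53 in the model and 2.39 to 3.30 in controls. Chac1, a glutathione-degrading enzyme, measured 4.94 to 13.7 CPM with electroacupuncture, 11.4 to 13.7 in the model and 10.7 to 12.4 in controls. Both model samples lay below every control for Ptgs2, as for 19.6% of all genes, and for Chac1 the ranges overlapped. The Ptgs2 values rest on few reads, with as few as 9 counts in a sample.

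The remaining antioxidant lists include Gpx3, a gene that is no member and whose model samples stood apart. Of 8 other peroxidases and dismutases 7 were tested and edgeR called 0 on the 8 samples, with a median log2 fold change of 0.26 for electroacupuncture against model, 0.00070 for electroacupuncture against control and -0.18 for model against control; 1, 0 and 2 had an unadjusted p under 0.05 in these comparisons. In the same comparisons DESeq2 called 1, 0 and 1, while edgeR with every column as its own sample called 1 for electroacupuncture against model (Gpx3 lower) and 2 for model against control (Gpx3 higher and Sod3 lower). Gpx3, the secreted glutathione peroxidase, measured 8.15, 8.80 and 6.33 CPM in electroacupuncture A to C, 37.1 and 25.3 CPM in model A and model B, and 4.58, 11.7 and 9.34 CPM in control A to C. Both model samples stood above all 6 others by more than 2 times. At any margin, 18.2% of all genes were higher without overlap for model against control. For electroacupuncture against model 11.7% were lower without overlap. The log2 fold changes were -2.0 for electroacupuncture against model (edgeR adjusted p = 0.140) and 1.87 for model against control (edgeR adjusted p = 0.139). DESeq2 called it in both (adjusted p = 0.000216 and 0.000558), comparisons that share the model samples. Sod1, the copper-zinc enzyme of the cytosol, measured 212 to 242 CPM with electroacupuncture, 224 to 228 in the model and 212 to 244 in controls, and catalase (Cat) 67.6 to 126 CPM with electroacupuncture, 53.2 to 121 in the model and 74.0 to 121 in controls, both with overlapping groups. Of 22 thioredoxin, peroxiredoxin and methionine sulfoxide reductase genes edgeR called 0 on the 8 samples, with a median of 0.041 for electroacupuncture against model, -0.017 for electroacupuncture against control and -0.088 for model against control; 2, 1 and 1 had an unadjusted p under 0.05 in these comparisons. DESeq2 called 0, 0 and 0, while edgeR with every column as its own sample called 1 for electroacupuncture against model (Msra higher) and 1 for model against control (Msra lower). Txnip, which binds and blocks thioredoxin, measured 139, 47.2 and 40.9 CPM in electroacupuncture A to C, 50.8 and 25.4 CPM in model A and model B, and 24.7, 24.9 and 50.4 CPM in control A to C, and electroacupuncture A stood apart from the rest. 

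Of 16 genes of selenoprotein supply edgeR called 0 on the 8 samples, with a median log2 fold change of 0.16 for electroacupuncture against model, -0.053 for electroacupuncture against control and -0.15 for model against control; 2, 0 and 1 had an unadjusted p under 0.05 in these comparisons. DESeq2 called 1, 0 and 1, while edgeR with every column as its own sample called 2 for electroacupuncture against model (Selenop and Selenot higher) and 1 for model against control (Selenot lower). The gene that DESeq2 called was Selenot, a selenoprotein of the endoplasmic reticulum. It was higher with electroacupuncture than in the model and lower in the model than in controls, comparisons that share the model samples. In the lists already described DESeq2 further called Taldo1, an enzyme of the pentose phosphate pathway, lower in the model than in controls, and Akr1c14, an aldo-keto reductase, lower with electroacupuncture than in the model and higher in the model than in controls. Of 18 genes of haem and iron handling 16 were tested and edgeR called 0 on the 8 samples, with a median of 0.15 for electroacupuncture against model, 0.011 for electroacupuncture against control and -0.14 for model against control; 1, 0 and 0 had an unadjusted p under 0.05 in these comparisons. DESeq2 called 0, 0 and 0, while edgeR with every column as its own sample called 1 for electroacupuncture against model (Tf higher). In that setting and comparison 5 of 8 oligodendrocyte markers were called higher too, beside 10.9% of all genes. On the 8 samples edgeR called 0 of these markers, with a median log2 fold change of 1.08 for electroacupuncture against model. The part of oligodendrocytes in the Tf values was not tested. Cp, the ferroxidase ceruloplasmin, measured 26.5, 7.10 and 9.81 CPM in electroacupuncture A to C, 29.6 and 5.86 CPM in model A and model B, and 5.96, 6.25 and 11.4 CPM in control A to C. It was high in model A and electroacupuncture A, as Hmox1 was. Of 15 enzymes that produce reactive oxygen or nitric oxide 9 were tested and edgeR called 0 on the 8 samples, with a median of -0.20 for electroacupuncture against model, 0.60 for electroacupuncture against control and 0.81 for model against control; 1, 0 and 1 had an unadjusted p under 0.05 in these comparisons. DESeq2 called 0, 0 and 0, while edgeR with every column as its own sample called 1 for electroacupuncture against model (Nos3 lower). Cybb, the phagocyte oxidase, was under 1 CPM in all samples. Of 13 NF-kB targets 9 were tested and edgeR called 0 on the 8 samples, with a median of -0.072 for electroacupuncture against model, 0.27 for electroacupuncture against control and 0.58 for model against control; 0, 1 and 1 had an unadjusted p under 0.05 in these comparisons. DESeq2 called 0, 0 and 0, while edgeR with every column as its own sample called 0 in each. These medians stand beside those of the 16 microglia and macrophage markers, 0.015 for electroacupuncture against model, 1.01 for electroacupuncture against control and 0.98 for model against control, whose part in them was not tested.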

How the data were processed

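Poly(A) RNA of rat brain was sequenced as strand-marked libraries, per the labels' protocols. The authors deposited 1 table of expected counts (estimated read counts, 70.5% to 72.0% whole within a column, not normalized). The submitters' processing notes name DESeq2 1.16.1, featureCounts 1.5.0-p3, HISAT2 2.0.5 and StringTie 1.3.3b without roles. Adapters carried molecular identifiers, per the labels' protocols; whether these and the strand were used in counting, the build, and the treatment of reads shared by gene copies remain not given in the sources used here.

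Column names gave the group, not the sample, for 4 model, 4 electroacupuncture and 3 control columns of 12 labelled samples. The 4 symbols on 2 rows were summed and values rounded. Near-identical column pairs, with a median squared difference under 2 times the sampling variance, were summed after this was seen, which left 8 samples. Separate animals are not stated as their source: the p-values then measure only the spread among these samples, possibly technical.

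The quasi-likelihood test of edgeR 4.0.16 was run in R 4.3.3 (two-sided, TMM scaling, filter by group, robust dispersion, all 3 groups in 1 fit, 15487 genes, 5 residual degrees of freedom), with Benjamini-Hochberg adjustment over all genes. Standard errors and 95% intervals were derived from the F statistic. CPM were TMM scaled, and log2 CPM used a prior count of 2. CPM are not corrected for gene length, so levels are compared between samples and not between genes. DESeq2 1.42.0, other scalings and filters, all columns as samples and leaving out each sample were tried as alternatives. Members and gene lists were chosen with earlier results of these data known. All members were named, together with pathway genes set by role and, for the 3 most variable members, the 3 genes of the closest profile. The values of 1 pathway gene are not reported here. Promoter sequence came from RefSeq, build GRCr8.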

Additional observations from a re-analysis of the deposited data

How the results depend on the processing

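None of the 10 genes was called in any of the 3 comparisons under any of the 16 alternatives, and the lowest adjusted p among them was 0.141 (Hmox1, model against control, every column as its own sample). Of 480 alternative log2 fold changes, 454 kept the direction and 26 turned, all for differences without a call. Those that turned when 1 sample was left out ran, for model against control, from -0.047 to 0.28 for Gclc, -0.14 to 0.15 for Txnrd1, -0.095 to 0.76 for Slc7a11, -0.070 to 0.086 for Gpx4 and -0.23 to 0.31 for Srxn1. For electroacupuncture against model they ran from -1.06 to 0.055 for Hmox1, -0.0060 to 0.32 for Txnrd1, -0.75 to 0.10 for Slc7a11 and -0.23 to 0.31 for Srxn1. For electroacupuncture against control they ran from -0.013 to 0.57 for Hmox1, -0.075 to 0.25 for Gclm, -0.22 to 0.20 for Slc7a11, -0.19 to 0.36 for Gpx1, -0.067 to 0.22 for Srxn1 and -0.16 to 0.15 for Sod2. Gpx4 turned to -0.00064 for model against control without a filter. Srxn1 turned for electroacupuncture against model to -0.024 with every column as its own sample, -0.011 with total counts and -0.013 with 1 column of each pair, an alternative added after seeing the data. Sod2 turned for electroacupuncture against control to 0.0026 with every column as its own sample and 0.031 with total counts. Total counts moved the median log2 fold change of all genes for model against control to 0.13, beside 0.017 with TMM.

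The number of all genes called varied far more. For model against control it was 1, but 1129 with every column as its own sample, 799 with DESeq2, 294 with only the 2 groups compared, 0 with total counts and 0 to 565 with 1 sample left out. For electroacupuncture against model it was 0, but 1666 with every column as its own sample, 705 with DESeq2 and 0 to 308 with 1 sample left out. For electroacupuncture against control it was 0, and 1 with DESeq2. The cause was not tested. Gpx3 passed for electroacupuncture against model and for model against control with every column as its own sample (edgeR adjusted p = 0.00354 and 0.00875), and for model against control also without electroacupuncture A (0.0488). No paired analysis was possible because the columns name a group and not a labelled sample, and summing the near-identical pairs joins columns of different numbers.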
